A study of Mus musculus with 24 samples.

Results

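The genes of the voltage-gated and related ion channel families were examined in N1E-115, a mouse neuroblastoma line. They were the probes whose gene name in the scanner files belongs to the potassium channel (Kcn), sodium channel alpha and beta (Scn), calcium channel (Cacna, Cacnb and Cacng) and hyperpolarization-activated channel (Hcn) families. The arrays carried 203 such probes for 127 genes. Of these, 66 genes passed detection, that is, 1 or more groups had all 4 samples well above background for the gene's brightest probe, and are described here, against 16240 genes tested on the whole array. The other 61 were counted as not detected. Among the 66, 52 were well above background in all 4 samples of all 6 groups and 14 in 1 to 5 groups.

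The line was compared in 3 forms. TO cells carry transcobalamin fused through its N-terminal side to oleosin, a chimera that binds cobalamin with high affinity. OT cells carry the fusion through the C-terminal side, with no detectable cobalamin binding, and WT cells are untransfected. Each form was grown in differentiation medium (d, 2.5% fetal calf serum and 1.25% DMSO) and in proliferation medium (p, 10% fetal calf serum), which gave the groups TO-d, OT-d, WT-d, TO-p, OT-p and WT-p with 4 samples each, 24 in all. The labels do not say whether a transfected line is 1 clone or whether the samples of a group came from separate cultures, so the p-values cover only the spread among these 24 samples, which may be technical.

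RNA (0.2 µg) was labelled with Cy5 or Cy3 and read on 12 two-colour arrays on 3 slides, with 2 samples of each dye in every group. Levels are normalized log2 intensities, so a step of 1 is a doubling, and levels of different genes are not compared because each probe has its own brightness. Changes are log2 differences from a limma fit over all genes, and a gene is called where the Benjamini-Hochberg adjusted p is under 0.05. In bulk RNA, fewer cells with a transcript and less transcript per cell cannot be told apart. The share of spots well above background was 54.3% to 65.9% per sample, and the number of arrays limits the precision. All 14 markers of neurons and sympathoadrenal cells were well above background in every group. Of markers of other cells, 4 to 5 of 12 for glia, 1 to 3 of 10 for blood and endothelium and 8 to 10 of 14 for fibroblasts and muscle were.

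Voltage-gated channels open a pore for sodium, calcium or potassium when the membrane potential changes. Sodium channels carry the upstroke of the action potential, calcium channels couple it to transmitter release and gene expression, and potassium channels repolarize the cell and set its firing pattern. Pore-forming subunits are joined by accessory subunits that set their surface level and gating. N1E-115 cells have long been used to record such currents, and reduced serum with DMSO is a usual way to make them extend neurites and become excitable.

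Promoter sequences are printed for 4 genes on which the results turn: Kcnip4, which was above background only in WT cells, Kcnmb2, which fell in d medium in all 3 lines, and Kcnc1 and Kcnc4, which rose in d medium in all 3 lines. They run from 250 bases before to 50 bases after the gene's start in RefSeq, on GRCm38.p6, 5′ to 3′ on the gene's strand. Capitals mark matches on either strand to GGGCGG (the GC box), TTCAGCACC and GGACAGC (the left and right parts of the RE1 element that the repressor REST binds), CACGTG (the E-box) or TGACGTCA (the CRE). The positions are chr5:49285610-49285909 (minus strand) and chr5:48599633-48599932 (minus strand) for the start sites of Kcnip4, chr3:31902453-31902752 (plus strand) for Kcnmb2, chr7:46396218-46396517 (plus strand) for Kcnc1 and chr3:107458849-107459148 (minus strand) for Kcnc4.
Kcnip4, first start site: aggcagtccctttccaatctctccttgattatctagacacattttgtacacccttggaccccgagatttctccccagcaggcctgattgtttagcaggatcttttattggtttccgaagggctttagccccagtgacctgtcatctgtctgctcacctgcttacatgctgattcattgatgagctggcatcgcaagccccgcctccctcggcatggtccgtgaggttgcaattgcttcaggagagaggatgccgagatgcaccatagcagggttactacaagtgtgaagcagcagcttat
Kcnip4, other start site: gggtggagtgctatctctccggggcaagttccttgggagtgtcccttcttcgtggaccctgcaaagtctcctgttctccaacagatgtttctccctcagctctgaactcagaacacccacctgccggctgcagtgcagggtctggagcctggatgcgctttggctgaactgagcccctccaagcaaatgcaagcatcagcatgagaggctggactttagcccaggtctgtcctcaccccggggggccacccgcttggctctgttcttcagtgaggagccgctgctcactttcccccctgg
Kcnmb2: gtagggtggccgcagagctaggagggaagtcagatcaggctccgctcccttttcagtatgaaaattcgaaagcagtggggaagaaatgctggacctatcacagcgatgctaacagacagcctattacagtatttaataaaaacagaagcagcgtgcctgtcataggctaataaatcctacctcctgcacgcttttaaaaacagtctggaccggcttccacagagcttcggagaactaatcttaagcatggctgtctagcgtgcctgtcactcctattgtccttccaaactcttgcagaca
Kcnc1: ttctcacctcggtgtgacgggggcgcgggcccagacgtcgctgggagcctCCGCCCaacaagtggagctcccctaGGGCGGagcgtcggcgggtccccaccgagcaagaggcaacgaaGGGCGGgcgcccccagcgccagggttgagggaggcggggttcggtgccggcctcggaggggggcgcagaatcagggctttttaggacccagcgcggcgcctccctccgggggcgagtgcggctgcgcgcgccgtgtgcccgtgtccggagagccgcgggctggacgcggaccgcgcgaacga
Kcnc4: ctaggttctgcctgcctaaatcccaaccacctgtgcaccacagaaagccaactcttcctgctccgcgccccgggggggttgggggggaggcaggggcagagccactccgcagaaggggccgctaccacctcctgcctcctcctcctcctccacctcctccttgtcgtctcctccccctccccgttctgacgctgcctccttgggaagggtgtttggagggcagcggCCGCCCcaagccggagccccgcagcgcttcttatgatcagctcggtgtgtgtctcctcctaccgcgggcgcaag

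The Kcnc1 window held 3 GC boxes and 41 CG pairs at 74.7% G and C, and the Kcnc4 window 1 GC box and 17 CG pairs at 66.7%. The Kcnmb2 window held none of the motifs and 9 CG pairs at 47.7%. The Kcnip4 windows also held none, with 7 CG pairs each at 51% and 59.7%. Over all 32851 promoters in the RefSeq table the median was 52.7% with 7 CG pairs. RefSeq gave 62 promoters for 45 of the 66 genes. A GC box was in 45.2% of these 62, against 35.7% of all promoters, and GGACAGC in 12.9%, against 6.56%. TTCAGCACC was in 1 of the 62 (1.61%), against 0.371%. CACGTG was in 2 of the 62, both of 1 gene (3.23%), against 7.15%, and TGACGTCA in 0 of the 62, against 1.79%. These matches describe letters in the window and were not tested.

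Detection differed by family. All 4 beta subunits of voltage-gated calcium channels (Cacnb1 to Cacnb4) and 6 of 8 genes of the gamma (Cacng) family were detected. So were 5 of 9 calcium pore subunits (Cacna1a, Cacna1b, Cacna1g, Cacna1h and Cacna1s) and 1 of 4 alpha2delta subunits (Cacna2d2). Of 10 sodium pore subunits 7 were detected, with 2 of 3 sodium beta subunits. Of the voltage-gated potassium (Kv) pore subunits 6 of 24 were detected, among them Kcna4, Kcna6, Kcnc1 and Kcnc4. Of the Kv4 subunits, Kcnd1 and Kcnd2 were well above background in no sample. Kcnd3 was in 3 of 4 samples of OT-d, WT-d, OT-p and WT-p, 2 of TO-d and 1 of TO-p, and so missed the rule of all 4. Kcnip3 and Kcnip4, whose proteins bind Kv4 channels, were detected. Other families had 7 of 12 Kv accessory subunits, 2 of 7 EAG and ERG subunits, 3 of 5 KCNQ subunits and 9 of 12 calcium- and sodium-activated potassium channel genes. Inward rectifiers had 5 of 14 detected, K2P background potassium channels 6 of 11, and HCN subunits 3 of 4.

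The largest difference between lines among the 66 genes was that of Kcnip4, which encodes a calcium-binding subunit of Kv4 channels. Its level was 5.78, 6.13, 6.15 and 6.18 in TO-d and 6.07, 6.10, 6.55 and 6.02 in OT-d, against 10.05, 10.17, 9.85 and 9.41 in WT-d. It was 5.78, 6.04, 6.17 and 6.07 in TO-p and 5.78, 6.16, 6.37 and 6.31 in OT-p, against 9.40, 9.81, 8.94 and 9.14 in WT-p. Every TO and OT sample lay below every WT sample, and the probe was well above background in no TO or OT sample.

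Because the transfected samples give only a bound, Kcnip4 was at least 13-fold lower in TO-d and at least 12-fold lower in OT-d, each against WT-d (limma adjusted p = 1.23e-13 and 1.47e-14). Against WT-p it was at least 8.68-fold lower in TO-p and at least 8.72-fold lower in OT-p (adjusted p = 3.68e-14 and 7.02e-14). Kcnip4 passed detection only through WT-d and WT-p, the groups where it was high. These p-values therefore rest on the groups that selected the gene and are no separate support. The bound sets the WT mean against the lowest level well above background in each transfected sample, or the probe's own level where that is higher. A second Kcnip4 probe was also lower in all 4 comparisons but by less than these bounds, which hold for the reported probe only. Its log2 changes were -1.67 in TO-d and -1.69 in OT-d against WT-d and -1.16 in TO-p and -1.08 in OT-p against WT-p. The reported probe lies on chromosome 5 at 48677898 to 48677957 on mm8, the build of the scanner files. The 6 transfected samples that shared an array with a WT sample had levels of 5.78 to 6.55 (median 6.04), and the 10 that did not had 6.02 to 6.18 (median 6.12).

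**Figure D1:**
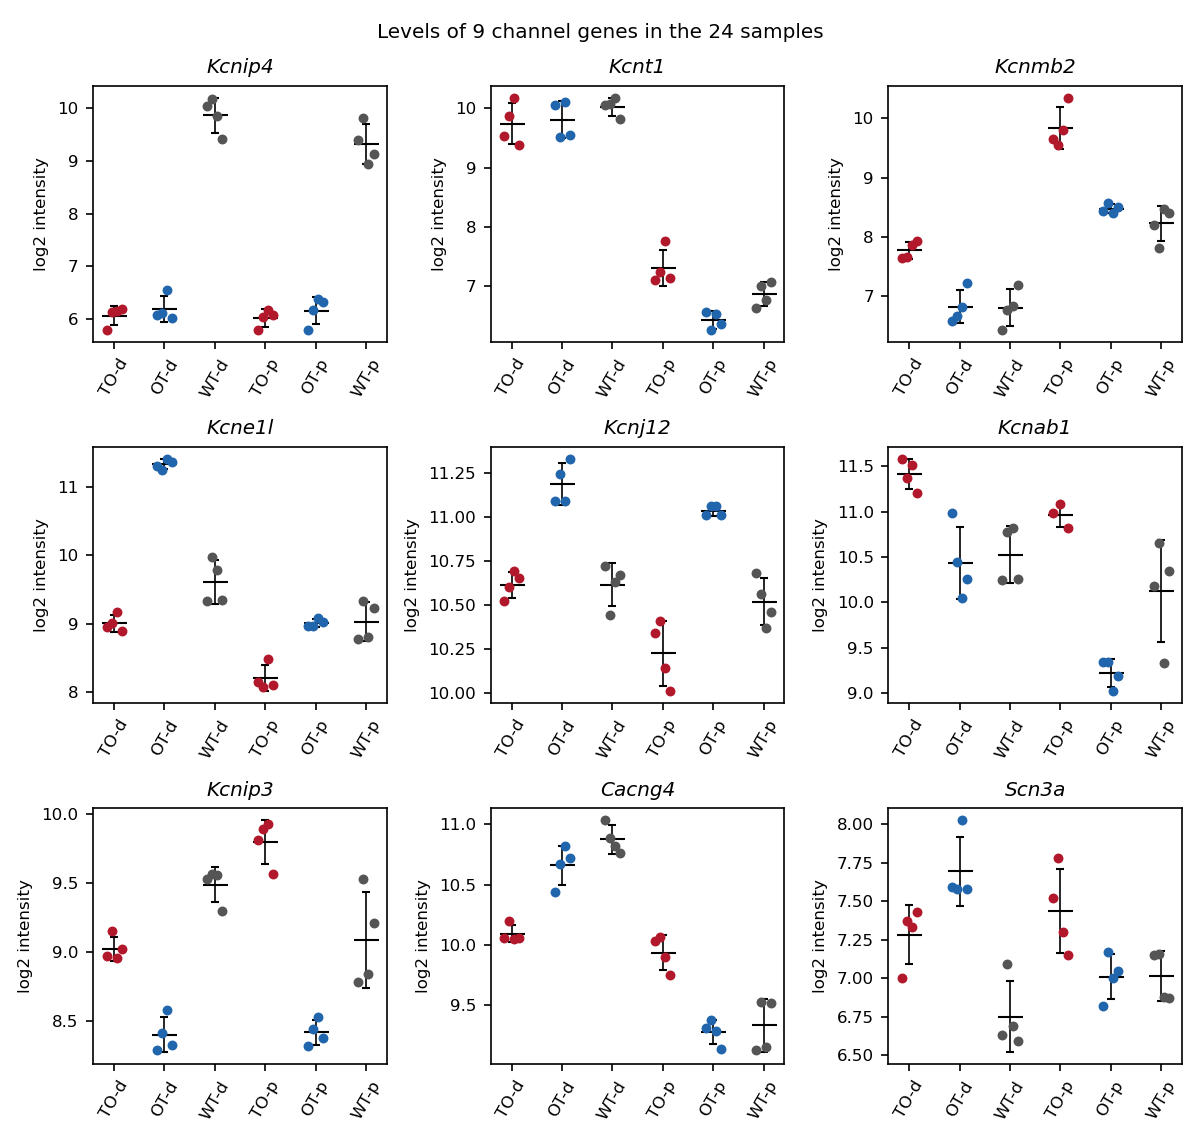
Normalized log2 intensity of 9 channel genes in each sample (points) with the mean and SD of each group (bars), for d medium on the left and p medium on the right of each panel, TO red, OT blue and WT grey. Kcnip4 lies between 5.78 and 6.55 in all TO and OT samples and between 8.94 and 10.17 in WT samples.

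Differentiation medium was compared with proliferation medium within each line, the question being which channel genes follow the change of medium. In OT cells 38 of the 66 genes were called, 34 higher and 4 lower (67.4% of all genes were called, 36.4% higher and 31% lower). In WT cells 35 were called, 30 higher and 5 lower (66.7% of all genes, 35.8% higher and 30.8% lower), and in TO cells 33, with 25 higher and 8 lower (52.3% of all genes, 26.5% higher and 25.8% lower). As shares of 66 the counts in either direction do not exceed those of all genes, whereas the shares called higher (51.5% in OT, 45.5% in WT and 37.9% in TO) are above, and the shares called lower (6.06%, 7.58% and 12.1%) below, those of all genes. With the marks on local background ignored, a setting added after seeing the data, the TO count was 20, with 15 higher and 5 lower. The median change of the 66 was 0.25 in OT, 0.21 in WT and 0.05 in TO cells, against 0.04, 0.06 and 0.00 over all genes.

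In all 3 lines 18 channel genes rose, 1 fell and 16 were called in none. The share of all genes with each of these patterns was not counted, so the counts do not set channel genes apart. The 18 changed by 0.25 to 2.30 in TO (median 0.56), by 0.42 to 3.30 in OT (median 0.89) and by 0.26 to 3.03 in WT (median 0.77). They included the Kv genes Kcna4, Kcnc1 and Kcnc4, the accessory genes Kcnab2 and Kcne1l, the calcium- and sodium-activated genes Kcnt1, Kcnma1, Kcnn1 and Kcnn3, the K2P genes Kcnk1 and Kcnk12, the calcium channel genes Cacna2d2, Cacnb3 and Cacng5, the sodium beta subunit Scn3b, and Hcn2 and Hcn3. In TO cells the calls of Cacna2d2, Hcn2 and Scn3b did not hold when single samples were left out. For Cacna2d2 these were TO-d replicate 4 (adjusted p = 0.0825) and TO-p replicate 1 (0.0549), for Hcn2 TO-d replicate 1 (0.061) and TO-p replicate 1 (0.0574), and for Scn3b TO-d replicate 4 (0.144) and TO-p replicate 4 (0.0609). Without TO-p replicate 2 Kcnk1 was not called in TO cells (adjusted p = 0.0893). Of the 51 calls of these 17 named genes, 4 were lost without the 6 samples lettered b in their description and 5 with the marks on local background ignored, 3 of which were in TO cells. The Kcnma1 call in WT cells was lost without WT-d replicate 2 (adjusted p = 0.0578) or WT-p replicate 3 (0.0781).

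**Figure D2:**
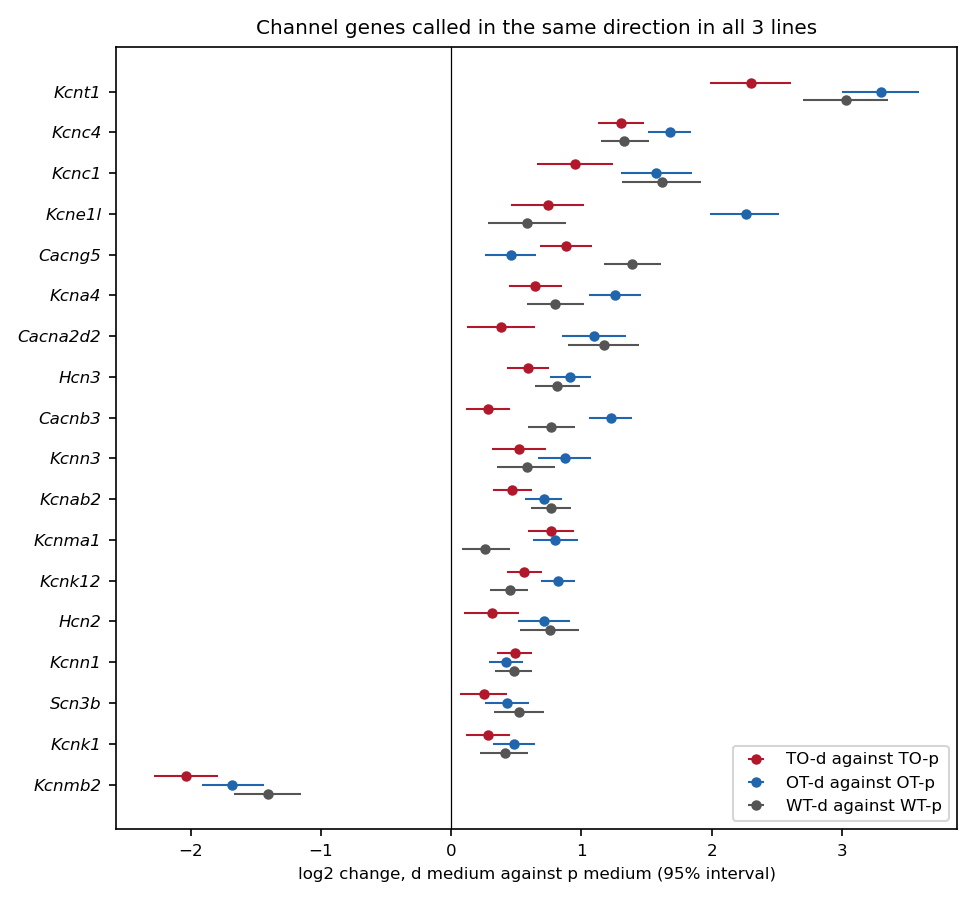
Log2 change in d medium against p medium with its 95% interval for 18 channel genes called in the same direction in all 3 lines, TO red, OT blue and WT grey. Kcnt1 stands at the top with changes of 2.30 to 3.30, and Kcnmb2, the one gene that fell, at the bottom.

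Kcnt1, which encodes a sodium-activated potassium channel, rose most of the channel genes in each line. Its level was 9.54, 9.87, 10.17 and 9.39 in TO-d, against 7.10, 7.24, 7.76 and 7.14 in TO-p. It was 10.05, 9.52, 10.10 and 9.55 in OT-d, against 6.57, 6.26, 6.54 and 6.37 in OT-p, and 10.05, 10.07, 10.18 and 9.82 in WT-d, against 6.64, 7.01, 6.77 and 7.08 in WT-p. All 12 d samples lay above all 12 p samples, and the lines overlapped in d medium. The change was 4.91-fold in TO, 9.83-fold in OT and 8.14-fold in WT cells (log2 2.30 ± 0.149, 3.30 ± 0.142 and 3.03 ± 0.158, SE, limma adjusted p = 1.11e-11, 3.37e-15 and 1.85e-13). In OT-p Kcnt1 was well above background in only 3 of 4 samples, so changes measured from OT-p rest on a level near background. The TO response of Kcnt1 was 2-fold smaller than the OT response (limma adjusted p = 0.000734). It differed from the WT response by -0.73 (adjusted p = 0.0129), a call lost without TO-d replicate 4 (adjusted p = 0.0926), with Feature Extraction processed signals (0.0535), with loess alone (0.064) and without the 6 lettered samples (0.204). In d medium the lines were not called apart (TO against OT -0.14, 95% interval -0.47 to 0.19). In p medium Kcnt1 was higher in TO than in OT by 0.86 (adjusted p = 3.15e-05) and than in WT by 0.44 (adjusted p = 0.0191), the second of which was lost without any of TO-p replicate 2 (0.0509), TO-p replicate 3 (0.0695), WT-p replicate 1 (0.0718) and WT-p replicate 3 (0.101) (adjusted p). A second probe of the gene also rose in all 3 lines, by 1.33 to 1.93, while its remaining probe was called in none of them (-0.07, 0.08 and 0.00 in TO, OT and WT). Its probe lies on chromosome 2 at 25738559 to 25738618 (mm8).

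Kcnmb2 encodes a beta subunit of the large-conductance calcium-activated (BK) channel that makes it inactivate. Its level was 7.65, 7.66, 7.86 and 7.93 in TO-d, against 9.65, 9.55, 9.81 and 10.35 in TO-p. In OT-d it was 6.59, 6.67, 6.83 and 7.23, against 8.44, 8.57, 8.41 and 8.50 in OT-p, and in WT-d 6.43, 6.77, 6.84 and 7.19, against 8.21, 7.82, 8.48 and 8.41 in WT-p. The TO samples lay above the OT and WT samples of the same medium. It fell in d medium by 2.04 in TO, 1.68 in OT and 1.41 in WT cells (limma adjusted p = 1.53e-12, 6.23e-12 and 1.33e-09). Kcnmb2 in TO-d exceeded OT-d by 1.03 and WT-d by 0.95, and in TO-p it exceeded OT-p by 1.39 and WT-p by 1.57, with adjusted p from 2.96e-10 to 5.65e-06. With the marks on local background ignored, under which the background correction failed on TO-p replicate 4, these Kcnmb2 differences between TO and the other lines were 0.59 to 0.87 and not called (adjusted p = 0.0655 to 0.177). With the marks used, all were called without any 1 sample. OT and WT were not called apart in either medium (-0.08, 95% interval -0.32 to 0.17, in d and 0.18, -0.04 to 0.40, in p).

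The pore subunit of the same BK channel, Kcnma1, and a second beta subunit, Kcnmb4, behaved otherwise. Kcnma1 rose in d medium in TO (0.77) and OT (0.80) and by 0.26 in WT. In d medium it was higher than in WT by 0.68 in TO and 0.56 in OT. Kcnmb4 was 10.62, 10.66, 10.68 and 10.55 in TO-d, against 10.15, 9.99, 10.18 and 10.10 in TO-p, and rose in TO cells by 0.58 (limma adjusted p = 0.000122). It was not called in OT (-0.24, adjusted p = 0.0508) or WT (-0.25, adjusted p = 0.0642), and the TO response exceeded theirs by 0.82 and 0.83. The small-conductance gene Kcnn1 was called in all 9 pairs of groups, at sizes of 0.22 to 0.59, of which TO-d against WT-d (0.23) was lost without WT-d replicate 4 (adjusted p = 0.115).

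Among Kv pore genes, Kcnc1 and Kcnc4 (fast Kv3 channels) and Kcna4 (a transient Kv1 channel) rose in d medium in all 3 lines. Kcnc4 rose by 1.30 in TO, 1.68 in OT and 1.33 in WT cells, Kcnc1 by 0.95, 1.57 and 1.62 (0.84, 1.18 and 1.17 on a second probe), and Kcna4 by 0.64, 1.26 and 0.80. For all 3 genes the d and p samples of a line did not overlap.

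Several genes of the calcium channel families rose in d medium in OT and WT cells but little or not in TO cells. Cacng4 is of the gamma (Cacng) family, which includes regulators of AMPA receptors. Its level was 10.06, 10.20, 10.05 and 10.06 in TO-d, against 10.03, 10.07, 9.90 and 9.75 in TO-p. In OT-d it was 10.44, 10.67, 10.82 and 10.72, against 9.31, 9.38, 9.29 and 9.14 in OT-p, and in WT-d 11.04, 10.89, 10.82 and 10.76, against 9.13, 9.53, 9.15 and 9.52 in WT-p. It changed by 0.06 in TO (adjusted p = 0.67), 1.39 in OT and 1.49 in WT cells, and the TO response was smaller by -1.33 than that of OT and by -1.43 than that of WT (limma adjusted p = 4.39e-07 and 1.04e-06). Cacnb3, a cytoplasmic beta subunit, rose by 0.28 in TO, 1.23 in OT and 0.77 in WT cells, and its TO-against-WT difference (-0.49) was not called with loess alone (-0.23, adjusted p = 0.263). The alpha2delta gene Cacna2d2 rose by 0.38, 1.1 and 1.17, though its second probe was called only in OT cells (0.42). For Cacna1h, a T-type pore subunit, the probes went in opposite directions in OT and WT cells: the brightest rose by 0.59 and 0.62, and another fell by 0.62 and 0.60. Cacng5, by contrast, rose by 0.88 in TO, 0.46 in OT and 1.39 in WT cells. The TO-against-OT difference of Cacng5 was lost without OT-d replicate 4 (adjusted p = 0.131) or TO-d replicate 4 (0.0729).

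The difference between lines in the response to d medium was tested directly. Against OT, the TO response was lower for 27 genes and higher for 3 (40.2% of all genes were called, 22.9% lower). Against WT, the TO response was lower for 19 and higher for 4 (36.5% of all genes, 18.9% lower), and the OT response was higher for 17 and lower for 3 (34.9% of all genes, 20.4% higher). With the Feature Extraction processed signals the last split became 12 higher and 10 lower, with quantile normalization 14 and 7, without WT-p replicate 2 13 and 5, and without WT-d replicate 4 14 and 5. With loess alone the TO against WT split became 6 higher and 9 lower.

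**Figure D3:**
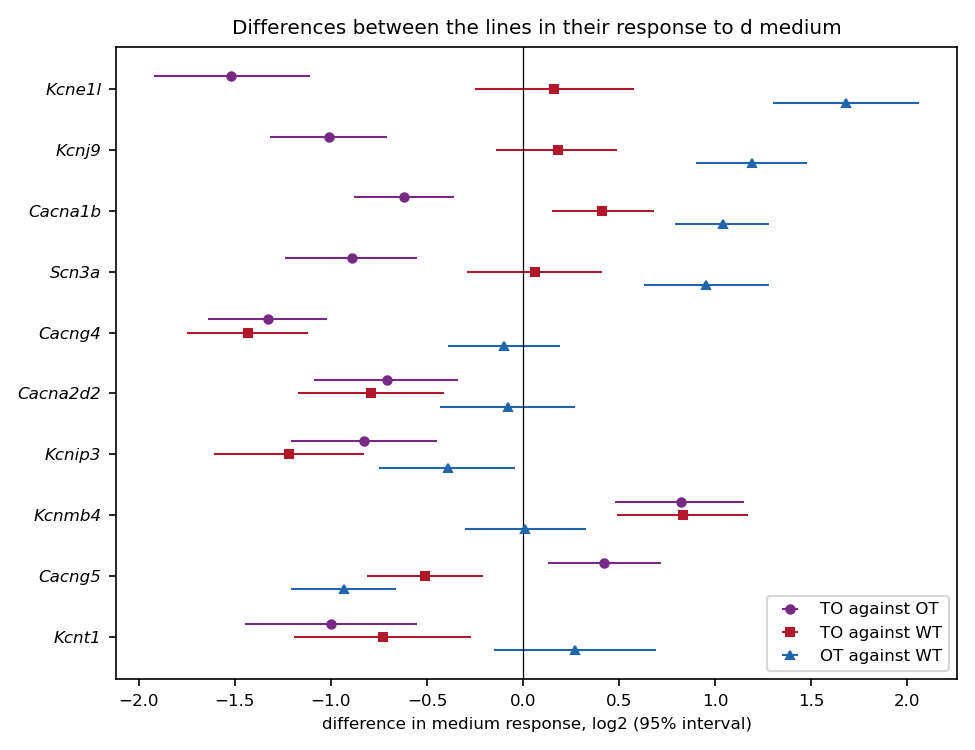
Differences between lines in their response to d medium (log2, with 95% intervals) for 10 channel genes, with TO against OT in purple circles, TO against WT in red squares and OT against WT in blue triangles. Kcne1l, Kcnj9, Cacna1b and Scn3a lie right of 0 for OT against WT and left of 0 for TO against OT.

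A group of genes rose in d medium mainly in OT cells. Kcne1l (the file's name for the gene of a KCNE-like accessory subunit) was 8.95, 9.01, 9.17 and 8.89 in TO-d, 11.30, 11.25, 11.41 and 11.36 in OT-d and 9.33, 9.98, 9.79 and 9.34 in WT-d. In p medium it was 8.15, 8.07, 8.48 and 8.11 in TO, 8.96, 8.96, 9.09 and 9.02 in OT and 8.77, 9.33, 8.80 and 9.23 in WT. All OT-d samples lay above every other sample. Kcne1l rose 4.78-fold in OT cells, 1.67-fold in TO cells and 1.49-fold in WT cells, and the OT response exceeded that of WT by 1.68 (limma adjusted p = 4.33e-07). With background marks ignored the rises of Kcne1l in TO (0.19, adjusted p = 0.685) and WT (0.50, 0.205) were not called, and the WT rise was also lost without the 6 lettered samples (0.0738). In d medium it was 4.94-fold lower in TO than in OT (adjusted p = 2.39e-11).

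Kcnj9, a subunit of G protein-gated inward rectifiers, was 9.84, 9.58, 9.46 and 9.52 in OT-d, against 8.19, 8.16, 8.36 and 8.20 in OT-p. It rose by 1.30 in OT cells and by 0.29 in TO cells, and was not called in WT cells (0.11, adjusted p = 0.382). The TO call of Kcnj9 was lost without TO-d replicate 4 (adjusted p = 0.087) or TO-p replicate 2 (0.101). A second Kcnj9 probe rose by 1.12 in OT and was not called in TO (0.18), and the OT response exceeded that of WT by 1.19 (limma adjusted p = 9.45e-07). Cacna1b, the pore subunit of N-type calcium channels that serve transmitter release, rose by 0.90 in OT and 0.28 in TO cells and was not called in WT (-0.14). The TO call of Cacna1b was lost without TO-d replicate 4 (adjusted p = 0.16) or TO-p replicate 2 (0.0919). The OT response of Cacna1b exceeded that of WT by 1.04 (limma adjusted p = 6.97e-07). A second Cacna1b probe gave 0.60 for the OT rise and 0.62 for this difference, both called, while its TO rise (0.18) and TO-against-WT difference (0.20) were not called. The TO-against-WT difference of Cacna1b (0.41) was lost without TO-d replicate 4 (adjusted p = 0.0941) or TO-p replicate 2 (0.0559). Kcnk3, a K2P background potassium channel that did not share this pattern, rose by 0.81 in OT and 0.57 in WT cells and was not called in TO (-0.07, adjusted p = 0.418).

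The sodium channel pore genes Scn1a and Scn3a, which encode brain sodium channels, also rose in d medium in OT cells. Scn3a was 7.00, 7.37, 7.33 and 7.43 in TO-d, 7.59, 7.58, 8.03 and 7.58 in OT-d and 6.63, 7.09, 6.69 and 6.59 in WT-d. In p medium it was 7.52, 7.78, 7.30 and 7.15 in TO, 6.82, 7.17, 7.00 and 7.05 in OT and 7.15, 7.16, 6.88 and 6.87 in WT. OT-d samples lay above all other d samples. Scn3a rose by 0.68 and Scn1a by 0.59 in OT cells, and their OT responses exceeded those of WT by 0.95 and 0.82 (limma adjusted p = 5.47e-05 and 6.17e-05). Scn3a in TO-d was lower than in OT-d by -0.45, which was lost without TO-d replicate 1 (adjusted p = 0.054). Scn2a, whose gene lies between them on chromosome 2, was not called in OT cells in d medium (0.06, adjusted p = 0.547). In TO and WT cells the reported Scn2a probe rose by 0.23 and 0.32, a second probe rose by 0.22 and 0.64, and the remaining one fell by 0.21 and 0.19, all called. The probes of Scn3a, Scn2a and Scn1a start at 65262294, 65565387 and 66074602 on mm8.

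The sodium beta subunit gene Scn3b rose in d medium by 0.25 in TO, 0.43 in OT and 0.52 in WT cells on one probe and fell by 0.50, 0.67 and 0.27 on another, with the remaining probe not called. Scn8a, a widely used neuronal sodium pore subunit, rose by 0.72 in OT and 0.78 in WT cells. Its second probe was not called in either (0.09 and 0.10).

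The lines were then compared within each medium, which asks how cells with the cobalamin-binding fusion differ from those with the other fusion and from untransfected cells. In p medium 37 genes were called between TO and OT, 30 higher in TO and 7 lower (56.2% of all genes were called, 29.9% higher and 26.3% lower). Against WT-p, TO-p had 27 higher and 4 lower (35% of all genes, 19.1% higher), and OT-p had 9 higher and 14 lower (44.6% of all genes). In d medium TO had 9 higher and 15 lower than OT (39.7% of all genes) and 16 higher and 15 lower than WT (46.5% of all genes), and OT had 18 higher and 13 lower than WT (51.7% of all genes). The OT-d against WT-d split became 15 higher and 17 lower without WT-d replicate 4, and 15 and 18 with Feature Extraction processed signals. Without WT-p replicate 1 the OT-p against WT-p split became 6 higher and 17 lower. The median difference of the 66 genes between TO-p and OT-p was 0.16, and 0.15 between TO-p and WT-p, against 0.01 over all genes in both. These comparisons share samples and are not independent.

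Kcnab1, Kcnip3 and Kcnmb2 were the channel genes that in TO-p exceeded OT-p over 2-fold. Kcnab1, a cytoplasmic Kv beta subunit, was 10.98, 11.08 and 10.82 in the 3 TO-p samples whose spot was kept, against 9.34, 9.34, 9.02 and 9.19 in OT-p and 10.18, 10.65, 9.33 and 10.34 in WT-p. In d medium it was 11.58, 11.37, 11.51 and 11.20 in TO, 10.98, 10.44, 10.05 and 10.26 in OT and 10.25, 10.77, 10.82 and 10.26 in WT, so that TO samples lay highest in both media. In TO-p Kcnab1 exceeded OT-p by 1.73 ± 0.213 (SE) and WT-p by 0.80, and in TO-d it exceeded OT-d by 0.98 and WT-d by 0.82 (limma adjusted p = 4.66e-07, 0.00433, 0.000723 and 0.00462). The Kcnab1 call between TO-p and WT-p was lost without the 6 lettered samples (adjusted p = 0.0558). A second Kcnab1 probe gave 0.36 in p and 0.39 in d medium for TO against OT and 0.44 for TO-d against WT-d, all called, and 0.13 for TO-p against WT-p, which was not called (limma adjusted p = 0.0993).

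Kcnip3, a calcium-binding Kv4 subunit also known as a transcriptional repressor, was 9.81, 9.89, 9.93 and 9.57 in TO-p, 8.32, 8.44, 8.53 and 8.38 in OT-p and 8.78, 9.53, 8.84 and 9.21 in WT-p. In d medium it was 8.97, 9.15, 8.96 and 9.02 in TO, 8.29, 8.41, 8.58 and 8.33 in OT and 9.53, 9.57, 9.56 and 9.30 in WT. TO samples were highest in p medium and WT samples in d medium, with OT lowest in both. Kcnip3 fell in d medium in TO cells by 0.85 (limma adjusted p = 5.68e-06), and this response differed from that of WT by -1.22 (adjusted p = 4.53e-05). A second Kcnip3 probe was called in none of the pairs.

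Kcnj12, a strong inward rectifier, was 10.34, 10.41, 10.14 and 10.01 in TO-p, against 11.01, 11.06, 11.06 and 11.01 in OT-p, and lower by -0.74 in TO-p and by -0.65 in TO-d than in OT (limma adjusted p = 6.59e-08 and 2.47e-06). OT also exceeded WT by 0.48 in p and 0.62 in d medium. The beta subunit gene Cacnb4 was well above background in TO-p and in no OT-p sample, at least 1.5-fold higher in TO-p. It passed detection only through TO-p and TO-d, so this difference rests on a group that selected the gene. Kcnj14 was well above background in all 4 samples only of OT-p, and was at least 1.36-fold lower in TO-p. The calls of Cacnb1, Cacnb3, Cacnb4, Cacna1g and Cacna1h between TO-p and OT-p were all higher in TO (0.54 to 0.88), with the opposite second probe of Cacna1h at -0.48. Of the 66 genes, 14 were called in none of the 9 pairs of groups, among them Kcna6, the P/Q-type pore gene Cacna1a, Kcnq1 and Kcnq5. The share of all genes called in none was not counted. Group means of Kcna6, Cacna1a and Kcnq1 were 6.56 to 6.9, near the lowest level well above background (5.87 to 6.38 per sample). A lack of calls is therefore not read as a stable level.

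**Figure D4:**
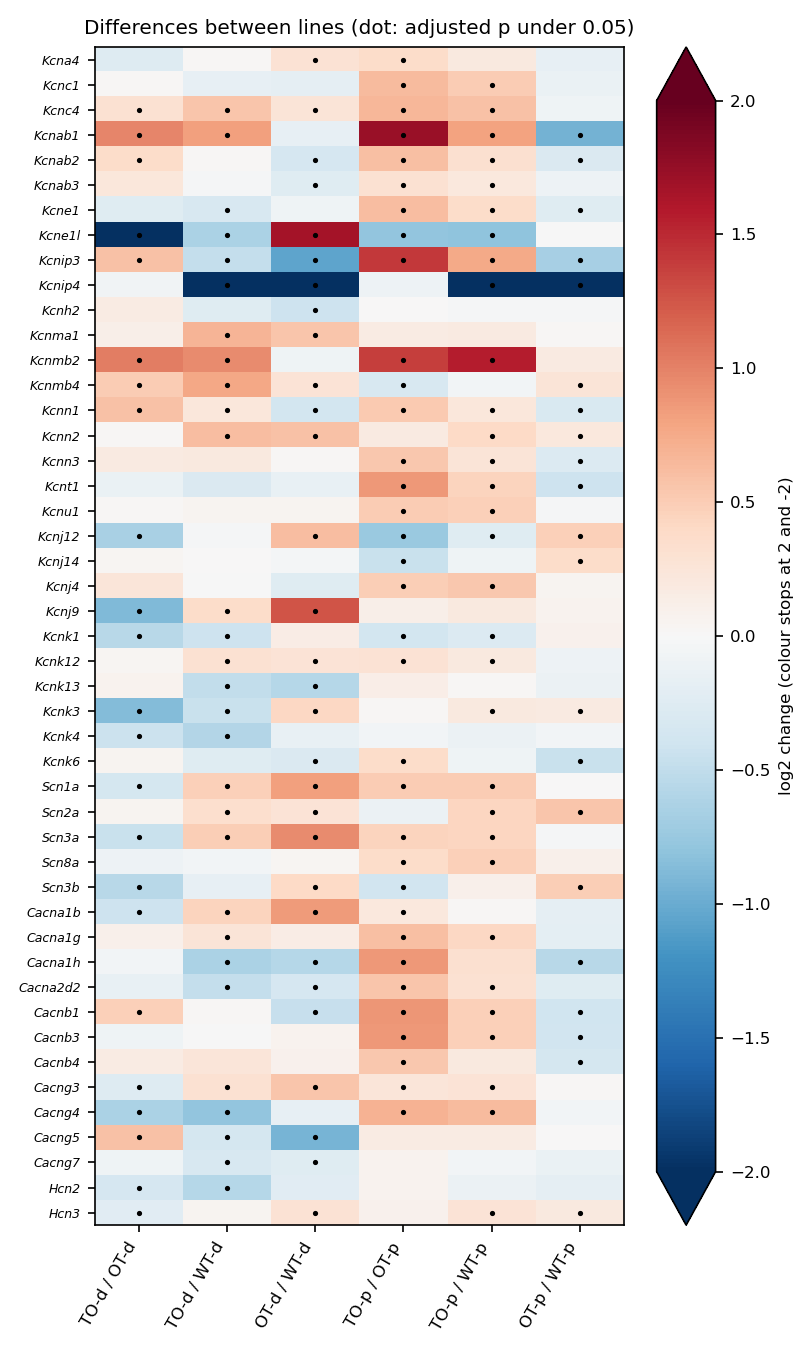
Log2 differences between lines for 47 channel genes called in at least 1 of the 6 comparisons of lines, d medium in the 3 columns on the left and p medium on the right, with red for higher and blue for lower in the first-named line. Dots mark adjusted p under 0.05, and Kcnip4 is lower in both transfected lines than in WT in both media.

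Of the 66 genes, 5 have their probe on chromosome 3 (Kcnmb2, Kcnab1, Hcn3, Kcnn3 and Kcnc4, starting at 32390366, 65466011, 89232699, 89747141 and 107566702 on mm8). These 5 were picked after their values were seen, and other chromosomes were not examined in this way. All 5 were called higher in TO-p than in WT-p (0.26 to 1.57), with 40.9% of the 66 genes and 19.1% of all genes called higher. The call of Hcn3 (0.28) was lost with loess alone (0.18, limma adjusted p = 0.11). That of Kcnn3 (0.26) was lost in 9 of the 24 fits without 1 sample, with limma adjusted p up to 0.314 (without WT-p replicate 3). Kcnmb2, Kcnab1 and Kcnc4 in TO-d also exceeded WT-d (by 0.95, 0.82 and 0.56). Against OT, 4 were called higher in TO-p (45.5% of the 66 genes and 29.9% of all genes were), Hcn3 (0.09) being the exception. In d medium Kcnmb2, Kcnab1 and Kcnc4 were higher in TO than in OT (1.03, 0.98 and 0.30), Hcn3 was lower by -0.23 (limma adjusted p = 0.0319) and Kcnn3 was not called (0.18). In TO-d, Hcn3 (0.06, adjusted p = 0.634) and Kcnn3 (0.20, adjusted p = 0.159) were not called against WT by limma.

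Related genes were read from lists. Of 41 partners and regulators of channels, 39 were tested. In d medium 16 were higher and 6 lower in OT, 13 and 8 in WT, and 10 and 12 in TO cells. Over all genes 36.4% were higher and 31% lower in OT, 35.8% and 30.8% in WT, and 26.5% and 25.8% in TO cells. The medians of the list were 0.12, 0.08 and 0.00, against 0.04, 0.06 and 0.00 over all genes. Rest, the repressor of neuronal genes named above, fell by 1.45 in OT cells (limma adjusted p = 9.93e-11), a response that differed from that of WT by -1.42. It was not called in TO (-0.08) or WT cells (-0.03), and the TO response of Rest differed from that of OT by 1.37. Fgf11, of a family that binds sodium channels, rose by 2.76 in OT, 1.16 in TO and 2.10 in WT cells. Camk2b, a kinase that acts on several channels, rose by 2.29 in OT and 1.03 in WT cells and was not called in TO cells (-0.11). Amigo1, a neuronal adhesion protein, rose by 1.03 in TO, 1.44 in OT and 0.93 in WT cells. Cntnap2, which clusters Kv1 channels on axons, was higher in TO than in OT by 1.84 in p and 1.57 in d medium.

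Of 60 other ion channel genes on the array, 47 were tested, and in d medium 27 were higher and 5 lower in OT, 21 and 10 in WT, and 19 and 5 in TO cells, with medians of 0.33, 0.15 and 0.15. Over all genes 36.4% were higher and 31% lower in OT, 35.8% and 30.8% in WT, and 26.5% and 25.8% in TO cells, with medians of 0.04, 0.06 and 0.00. Of 30 ion pump and exchanger genes, 27 were tested, with 14 higher and 7 lower in OT, 13 and 8 in WT, and 9 and 7 in TO cells, and medians of 0.24, 0.08 and 0.07. Slc12a5, the neuronal potassium-chloride cotransporter, rose by 1.20 in TO, 1.73 in OT and 1.72 in WT cells (limma adjusted p = 2.41e-07, 1e-10 and 1.31e-09). Atp1b1, a subunit of the sodium pump, fell by 0.55 in TO, 1.38 in OT and 0.68 in WT cells. The neuron and sympathoadrenal markers moved as well: in OT cells 10 of 14 were higher and 1 lower in d medium (median 0.68), against 6 and 4 in TO (0.06) and 5 and 4 in WT (0.03). Their summed linear levels were 404000 to 655000 in TO-d, 508000 to 788000 in OT-d and 369000 to 578000 in WT-d, and 258000 to 525000 in TO-p, 291000 to 326000 in OT-p and 231000 to 469000 in WT-p. The summed levels of glial markers were 1650 to 1910 in TO-d, 1900 to 2170 in OT-d and 2840 to 2940 in WT-d, and 1310 to 1480 in TO-p, 1260 to 1390 in OT-p and 1470 to 1750 in WT-p. Those of fibroblast and muscle markers were 11800 to 15500 in TO-d, 7160 to 11600 in OT-d and 10800 to 17200 in WT-d, and 11700 to 15600 in TO-p, 12700 to 13200 in OT-p and 10300 to 13100 in WT-p. For blood and endothelium they were 1460 to 1530 in TO-d, 1160 to 1270 in OT-d and 1070 to 1220 in WT-d, and 1230 to 1390 in TO-p, 855 to 905 in OT-p and 916 to 1000 in WT-p. These sums mainly follow the brightest genes. For glia this is Mbp (highest log2 group mean 10.82), and for fibroblasts and muscle Acta2 (13.09) and Ryr1 (12.95). Ryr1 was also in the list of other ion channel genes. The part of these markers in the channel results was not tested.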

How the data were processed

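Per the file headers, the scanner tables come from Feature Extraction 10.5.1.1, and as deposited they hold mean signal and local background intensity for each spot and dye, and the deposited series table holds 1 intensity per spot and sample, which was taken to log2 as an alternative only. No spot was saturated. Probe coordinates were taken from the tables (mm8).

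The software was limma 3.58.1, with statmod 1.5.0, under R 4.3.3. The steps were normexp background correction (offset 50), removal of 1639 control spots, loess within arrays and Aquantile between arrays, which gave log2 intensity per dye. Spots with an outlier mark on the signal (0.294% of values) were left out, and those with a mark on the local background (1.81%) took the sample's median background. This second step was chosen after a few very bright backgrounds made the correction fail on TO-p replicate 4, and it decides some calls, as given beside them.

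Each gene was read from its brightest probe on average. A gene was tested where 1 or more groups had all 4 samples well above background, which left 16240 of 27597 names. The fit had a mean for each group, a dye term and the array as a block (correlation 0.452, 17 residual degrees of freedom). Genes named with values were up to 8 per direction and pair of groups with no overlap between samples, up to 4 per direction in response differences, and a fixed set of main subunits; others, such as the chromosome 3 genes, the promoters shown and Kcnn1, were picked after their values were seen. A few genes are counted in the totals but not reported here. The members and lists were chosen with earlier results of these data known. Samples with the same replicate number correlated at a median of 0.11 (-0.23 to 0.45), so the numbers were not taken to pair samples. The fit was tested on simulated data. Alternatives are given under the processing part.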

Additional observations from a re-analysis of the deposited data

Results flagged for a closer look

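In 23 of 269 sets of 4 samples (45 named genes in 6 groups), 1 sample stood apart from the other samples of its group by Dixon's test, of which chance flags about 1 set in 20. Cacna1h read 8.95 in OT-p replicate 4 (others 8.44 to 8.47) and 9.49 in OT-d replicate 3 (others 8.98 to 8.99), and Cacnb1 read 9.68 in WT-d replicate 1 (others 9.14 to 9.21). Kcnip4, at background in both lines, read 5.78 in TO-d replicate 1 (others 6.13 to 6.18) and 6.55 in OT-d replicate 3 (others 6.02 to 6.10). The other samples above their group were Cacnb3 at 11.14 in TO-p replicate 2, Cacnb4 at 6.88 in OT-d replicate 2, Cacng4 at 10.20 in TO-d replicate 2, Kcnc4 at 9.82 in TO-d replicate 2, Kcne1 at 7.03 in WT-d replicate 2, Kcnk1 at 7.28 in TO-d replicate 2, Kcnn2 at 9.01 in TO-p replicate 3, Scn1a at 8.00 in OT-p replicate 3 and Scn3a at 8.03 in OT-d replicate 3. Those below their group were Cacnb3 at 11.03 in WT-d replicate 2, Cacnb4 at 6.71 in TO-p replicate 1, Cacng2 at 6.87 in WT-p replicate 3, Cacng5 at 7.95 in TO-p replicate 4, Hcn4 at 6.99 in OT-d replicate 3, Kcnip3 at 9.30 in WT-d replicate 4, Kcnma1 at 6.53 in TO-p replicate 1, Kcnma1 at 6.52 in WT-d replicate 4 and Scn2a at 8.83 in OT-p replicate 4.

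The lines differed in their response to d medium by limma's test of the difference itself, adjusted over all genes tested. Between TO and OT the response to d medium differed (log2, first line minus second) by 0.82 for Kcnmb4, 0.48 for Kcnj14, 0.42 for Cacng5, -1.52 for Kcne1l, -1.33 for Cacng4 and -1.01 for Kcnj9. Between TO and WT the response to d medium differed (log2, first line minus second) by 0.83 for Kcnmb4, 0.50 for Kcnma1, 0.41 for Cacna1b, -1.43 for Cacng4, -1.22 for Kcnip3, -0.96 for Cacna1h and -0.79 for Cacna2d2. Between OT and WT the response to d medium differed (log2, first line minus second) by 1.68 for Kcne1l, 1.19 for Kcnj9, 1.04 for Cacna1b, 0.95 for Scn3a, -0.93 for Cacng5, -0.40 for Kcnh2 and -0.39 for Kcnj14. For Cacna1h a second probe gave this TO against WT difference the opposite sign (0.44, limma adjusted p = 0.0196), so its direction is not settled. Cacna2d2 had a second probe of opposite sign between OT-d and WT-d. Kcnj14 passed detection only through OT-p, where its mean was 6.75, against 6.24 to 6.33 in the other groups. Its differences in response therefore rest on the group that selected it, lie near background and are not exact. The differences for Cacna1b (TO against WT) and Cacng5 (TO against OT) were lost without single samples, as given above. Of Kcnh2 (OT against WT) the call was lost without WT-p replicate 2, with loess alone (-0.17, adjusted p = 0.454) and with background marks ignored (0.0695). Of Kcnma1 (TO against WT) it was lost with Feature Extraction processed signals (adjusted p = 0.342), with background marks ignored (0.112) and without the 6 lettered samples (0.0684). The last setting also ended the calls of Cacng5 (0.221) and Cacna1b (0.135).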

How the results depend on the processing

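Of the 732 log2 changes (61 genes in 12 comparisons), no called one changed sign under an alternative that kept the probe. On a second probe 14 called changes were called with the opposite sign (6 of Scn3b, 5 of Cacna1h, 2 of Scn2a and 1 of Cacna2d2). Over all described channel genes, second probes of called changes shared the call in 6 of 18 cases for TO-d against TO-p. They did in 9 of 19 for OT-d against OT-p and 6 of 18 for WT-d against WT-p. For the responses it was 4 of 17 (TO against OT), 3 of 13 (TO against WT) and 4 of 7 (OT against WT). Between lines it ran from 5 of 15 (OT-d against WT-d) to 5 of 9 (TO-d against OT-d). The remaining second probes were not called or had the opposite sign. Changes not called were called with the opposite sign under other settings for Cacna1s between OT-d and WT-d without WT-d replicate 2 (0.41) and without the 6 samples lettered b in their description (0.37), and for the Cacna1s response of OT against WT without WT-d replicate 2 (0.34). Over all fits without 1 sample these Cacna1s values ran from -0.17 to 0.41 between OT-d and WT-d and from -0.26 to 0.34 for the response. Single changes lost their call in 6 to 72 of 732 under the other settings (most without the 6 lettered samples, with 64 for background marks ignored and 56 for loess alone) and in 379 of 17568 fits without 1 sample. Both totals include changes that were never called and so could not lose a call. The share of calls lost is therefore larger than these fractions. Leaving out 1 sample at a time gave 33 to 38 called genes for TO-p against OT-p, 21 to 27 for TO-d against OT-d, 21 to 32 for TO-p against WT-p, 28 to 33 for TO-d against WT-d, 18 to 23 for OT-p against WT-p, 26 to 33 for OT-d against WT-d, 31 to 37 for WT-d against WT-p, 26 to 34 for TO-d against TO-p and 35 to 41 for OT-d against OT-p. For the differences in response it gave 24 to 31 (TO against OT), 17 to 25 (TO against WT) and 16 to 22 (OT against WT). Counts that moved by over 1.5 times were 20 (15 higher, 5 lower) for TO-d against TO-p with the marks on local background ignored, a setting added after seeing the data, 15 (6 and 9) with loess alone and 15 (2 and 13) without the 6 lettered samples for the TO against WT response, and 13 (10 and 3) without these 6 samples for the OT against WT response. The cause was not tested.

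Splits of calls moved by over 10 points with loess alone for TO-d against OT-d (10 higher, 11 lower), TO-d against WT-d (17 and 6), OT-p against WT-p (5 and 18) and the OT against WT response (20 and 1), and with Feature Extraction processed signals for OT-d against WT-d (15 and 18). For OT-p against WT-p they also moved without the 6 lettered samples (5 and 13). With Feature Extraction processed signals the median of all genes was 0.19 for WT-d against WT-p, where the main fit gave 0.06. For the TO against WT response it was -0.13 with those signals and 0.13 with loess alone, where the main fit gave -0.04. With the replicate number as a block in place of the dye term, counts were 19 to 38 and within 1 of those reported; the pairing check gave no ground for it, and with slide as a covariate they were 20 to 40. On single slides called genes kept their direction in all but 0 to 3, with the most exceptions for WT-d against WT-p on slide 3 (32 of 35). The d groups were spread unevenly over the slides, so OT-d could be compared with WT-d only on slide 3 (2 samples against 1). The slides hold the samples that made the calls and are no separate check. Pairs lettered b and unlettered differed by a median SD of 0.204 (0.132 to 0.376), against 0.232 (0.117 to 0.374) for other pairs of opposite dye. With dye removed, the deviations of the lettered pairs from their group means correlated at a median of 0.01 (-0.59 to 0.21). The other pairs correlated at -0.42 (-0.7 to 0.4), so by this measure the lettered pairs were more alike. All were kept as separate samples. If the lettered samples repeat the same RNA, the p-values are too small, which was not tested. Calls near the threshold, such as Kcnmb4 between TO-p and OT-p (lost without OT-p replicate 1, adjusted p = 0.0668), Kcnt1 between OT-p and WT-p (0.11 without OT-p replicate 4) and Kcnip3 in WT cells (0.109 without WT-p replicate 1), rest on single samples. Levels near background limit Kcnip4, Kcnj14 and Cacnb4 to bounds.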
